A study of Mus musculus with 6 samples.

Results

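The genes described here encode 7 surface molecules through which leukocytes roll, adhere, migrate and avoid being engulfed: Cd44, Selplg, Cd47, Cd9, Icam1, Icam2 and Esam. They were chosen by symbol, and every probe set annotated to exactly 1 of these symbols was taken, which gave 14 of the 45037 probe sets tested, or 7 of 18193 genes. The set was proposed with the difference between the same 2 groups already known, so the members' differences are described and not tested. Expression was read on Affymetrix 3' expression arrays, on which a probe set reports 1 stretch of a transcript, usually near its 3' end. Values are log2 expression values from RMA, a method that corrects background, scales arrays to each other and summarises the probes of a set. The 3 AID-/- arrays hold leukaemia cells without AID, the cytidine deaminase with which activated B cells mutate and switch their antibody genes, and the 3 AID+/+ arrays hold leukaemia cells in which that gene is intact. Both groups are labelled Balb/c, and the series title describes acute lymphoblastic leukaemia driven by BCR-ABL1, the fused tyrosine kinase made from the Philadelphia chromosome. The series asked how expression differs between AID-expressing and AID-deficient leukaemia. The titles call the 3 samples of a group biological replicates. Whether these came from separate animals, how BCR-ABL1 was introduced and the age of the animals are not given in the sources used here, so the p-values cover the spread between the samples as labelled, which may be partly technical.

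Leukocytes leave the blood in steps. P-selectin glycoprotein ligand 1, encoded by Selplg, and glycoforms of CD44 bind selectins and let cells roll along the vessel wall. Integrins on the leukocyte then bind ICAM-1 and ICAM-2 on the vessel wall, and junctional molecules such as ESAM line the path between endothelial cells. CD44 is also the main receptor for hyaluronan, a sugar polymer of the bone marrow matrix, and BCR-ABL1 leukaemia cells are known to use it to lodge in marrow. CD47 signals to macrophages through SIRP alpha that a cell should not be engulfed, and CD9 is a tetraspanin that organises other surface proteins into membrane patches.

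In AID-/- leukaemia Cd44 was about 20-fold lower at its brightest probe set, and Icam1 about 4-fold higher, than in AID+/+ leukaemia. Selplg, Cd47 and Icam2 were bright in both groups with overlapping values, while Cd9 was under the median probe set in both and Esam was close to it. Because Cd44 and Icam1 carry the difference, the 250 bases before their annotated transcription starts are given here, 5′ to 3′ on the strand of the gene, from RefSeq promoters of the GRCm38.p6 build. Cd44 lies on the minus strand and the window is chr2:102901666-102901915, while Icam1 lies on the plus strand and the window is chr9:21015690-21015939. Capitals mark every match to 1 of 6 motifs on either strand.
Cd44: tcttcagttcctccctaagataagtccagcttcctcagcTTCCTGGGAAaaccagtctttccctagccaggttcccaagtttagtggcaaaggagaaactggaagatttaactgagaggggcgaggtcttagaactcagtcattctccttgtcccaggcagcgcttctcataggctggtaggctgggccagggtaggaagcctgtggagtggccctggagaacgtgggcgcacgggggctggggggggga
Icam1: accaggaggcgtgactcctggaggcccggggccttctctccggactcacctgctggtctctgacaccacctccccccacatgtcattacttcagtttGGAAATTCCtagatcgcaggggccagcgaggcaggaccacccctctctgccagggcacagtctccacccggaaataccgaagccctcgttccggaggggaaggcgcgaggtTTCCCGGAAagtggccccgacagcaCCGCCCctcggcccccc

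The motifs were chosen after the sequences were seen. They were the STAT-type palindrome TTCNNNGAA, its form with 4 bases between TTC and GAA, the core GGAAATTCC of the NF-kappaB site known in human ICAM1, the GC box GGGCGG, the TATA box TATAAA and the AP-1 site TGANTCA. The Icam1 window held TTCNNNGAA at 42 to 34 bases before the start, a motif found in 7.02% of all 32851 promoter windows of this length. It also held GGAAATTCC at 153 to 145 bases before the start, which 0.286% of windows hold, and a GC box at 17 to 12 bases before it, as in 32.7% of windows. The Cd44 window held only the form with 4 bases between TTC and GAA, at 211 to 202 bases before the start, which 5.85% of windows hold. Neither window held TATAAA or TGANTCA, present in 12.4% and 6.75% of windows. No matched letters overlapped, and a match describes the letters and says nothing about a bound factor. Windows were given for 4 of the 7 genes, Cd44, Cd47, Cd9 and Icam1.

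Pearson's r between arrays, taken over probe sets that are not independent of each other, was 0.991 or more inside either group and 0.972 to 0.977 between groups. All 3 AID-/- arrays held Y-linked Kdm5d signal at 1424903_at, at 7.62 to 7.74 against 2.42 to 2.68 in AID+/+ arrays, so genotype and sex of the leukaemia cannot be told apart here. B-lineage markers were bright in both groups, with 0 of 6 measured called by limma (0 at an unadjusted p under 0.05). Their linear values, 2 raised to each log2 value, summed to 27931 to 28856 in AID-/- and 25887 to 29392 in AID+/+ arrays. Myeloid markers, in cells rich in CD44, summed to 166 to 214 in AID-/- and 165 to 209 in AID+/+ arrays; 1 of 8, the lysozyme gene Lyz2, rose (limma adjusted p = 0.0436; 3 of 8 at an unadjusted p under 0.05). The other 7 myeloid markers had differences of -0.43 to -0.12, opposite in sign to Lyz2. Of the 8, 6 lay under the median probe set in both groups: Mpo, Elane, S100a8, S100a9, Csf3r and Adgre1. Lyz2 had the highest AID-/- mean of the 8, at 6.02, and so weighs most in the AID-/- sums. Endothelial and stromal markers, of cells that express Esam, Icam1 and Icam2, summed to 128 to 142 in AID-/- and 135 to 142 in AID+/+ arrays, with 7 of 8 under the median and 0 called by limma (0 at an unadjusted p under 0.05). Megakaryocyte and platelet markers, of cells rich in CD9, summed to 214 to 218 in AID-/- and 219 to 253 in AID+/+ arrays, with 0 of 5 called (1 at an unadjusted p under 0.05). Erythroid markers summed to 84.7 to 87.8 in AID-/- and 90.5 to 110.4 in AID+/+ arrays, with 0 of 3 called (1 at an unadjusted p under 0.05), and T and NK cell markers to 162 to 179 in AID-/- and 176 to 185 in AID+/+ arrays, with 0 of 6 called (0 at an unadjusted p under 0.05). Whether other cells had a part in any difference was not tested. In a bulk sample, fewer cells of a type and less RNA per cell cannot be told apart.

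**Figure D1:**
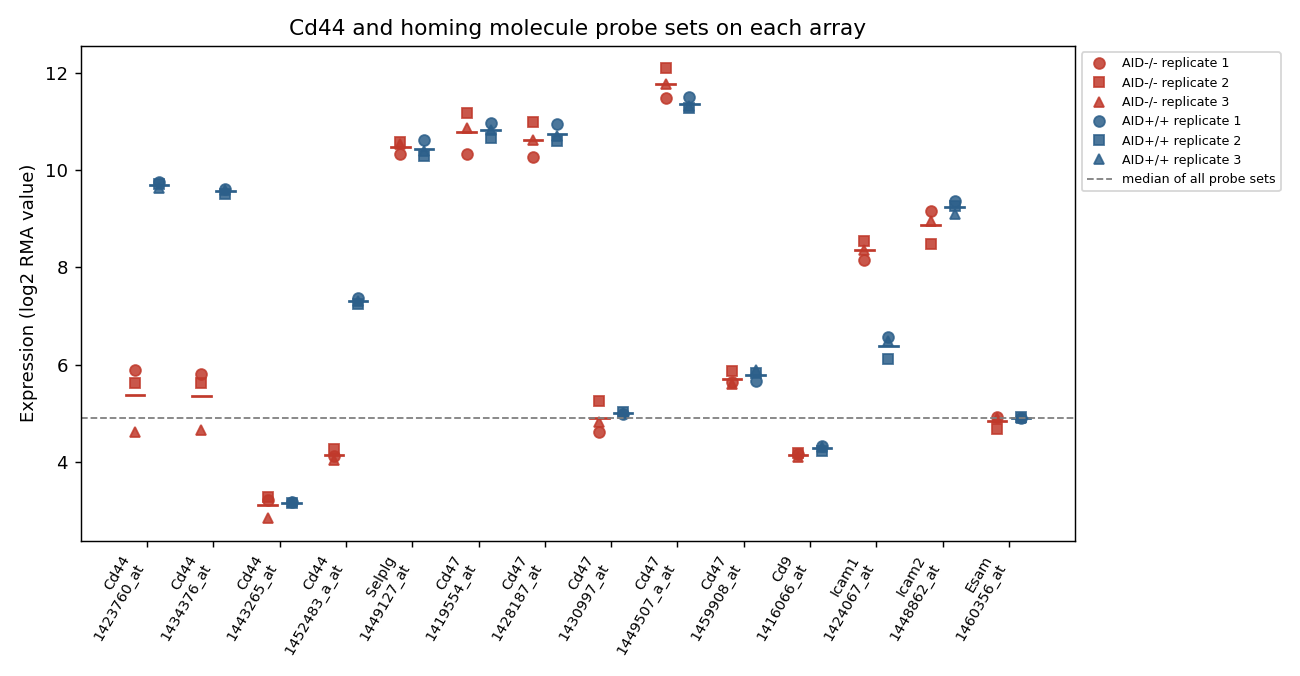
The log2 RMA value of each of the 14 probe sets (horizontal axis) on each of the 6 arrays, with AID-/- in red at the left of each pair and AID+/+ in blue at the right; bars are means of 3 arrays and the dashed line is the median probe set, at 4.89. The Cd44 probe sets at 1423760_at, 1434376_at and 1452483_a_at sit far lower in AID-/- arrays, Icam1 sits higher, and the other probe sets lie close together in both groups.

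Cd44 was read by 4 probe sets. At 1423760_at, the brightest, the AID-/- arrays were at 5.89, 5.62 and 4.62, against 9.75, 9.72 and 9.63 in the AID+/+ arrays. Every AID-/- array was thus far under every AID+/+ array, and replicate 3 was the lowest of its group. With means of 5.37 ± 0.67 for AID-/- and 9.70 ± 0.06 for AID+/+ (SD, n = 3), the difference came to -4.33 (moderated SE 0.28), or 20.1-fold lower on the RMA scale. AID-/- replicate 3 was under the median probe set here and at 1434376_at, so without detection calls the fold is approximate. At 1434376_at the AID-/- arrays were at 5.80, 5.62 and 4.65, against 9.62, 9.51 and 9.59 in AID+/+ arrays, which is the same order among the AID-/- arrays and a difference of -4.22 (SE 0.26). At 1452483_a_at, of a type that can match several transcripts of a gene, the AID-/- arrays were at 4.11, 4.25 and 4.03, against 7.36, 7.25 and 7.31 in AID+/+ arrays. The difference was -3.17 (SE 0.10), with every AID-/- array under the median probe set, and without detection calls no fold is drawn from it.

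The last Cd44 probe set, 1443265_at, was near the lower end of the scale everywhere, at 3.20, 3.26 and 2.84 in AID-/- and 3.16, 3.15 and 3.16 in AID+/+ arrays. Its groups overlapped, with a difference of -0.06 (SE 0.12). The mean over the 4 probe sets therefore gave -2.94 in place of -4.33. Among the AID-/- arrays, replicate 1 was highest and replicate 3 lowest at the 2 brightest Cd44 probe sets. Some sex-linked transcripts, looked at after their values were seen, ran in that order too. Xist, a non-coding RNA of the silenced X chromosome, was at 6.02, 5.55 and 4.35 in AID-/- and 11.94, 12.18 and 11.93 in AID+/+ arrays at 1436936_s_at. Y-linked Eif2s3y was at 8.85, 3.67 and 2.71 in AID-/- and 2.51, 2.54 and 2.59 in AID+/+ arrays at 1417210_at. The order held at 3 of 9 Y-linked probe sets, and not at the brightest Kdm5d and Uty ones. It held at 2 of the 3 Xist probe sets and failed at 1427262_at, where AID-/- arrays were at 3.34, 3.50 and 3.47 and AID+/+ arrays at 12.16, 11.99 and 12.21. Where it held, Eif2s3y at 1431642_at (2.89, 2.88 and 2.78) and Xist at 1427263_at (3.52, 3.32 and 3.19) were under the median probe set in AID-/- arrays. With 3 arrays only a few orders are possible, so nothing is read from these counts. The part of these differences between AID-/- arrays in the Cd44 values was not tested.

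Icam1, the integrin ligand that inflammatory signals induce on many cells, went the other way. Its probe set was at 8.15, 8.56 and 8.37 in AID-/- arrays, against 6.57, 6.11 and 6.48 in AID+/+ arrays. The groups did not overlap, and both were above the median probe set on every array. With means of 8.36 ± 0.20 for AID-/- and 6.38 ± 0.24 for AID+/+ (SD, n = 3), the difference came to 1.97 (SE 0.15), or 3.93-fold higher. Icam2, a related integrin ligand that is usually expressed without induction, was at 9.16, 8.48 and 8.95 in AID-/- arrays, against 9.38, 9.28 and 9.11 in AID+/+ arrays. Replicate 2 was the lowest AID-/- array for Icam2 and the highest for Icam1. The Icam2 groups overlapped, with a difference of -0.39 (SE 0.17).

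Selplg, which encodes the main selectin ligand of leukocytes, was at 10.35, 10.58 and 10.54 in AID-/- arrays, against 10.62, 10.31 and 10.40 in AID+/+ arrays. The values interleaved, with a difference of 0.04 (SE 0.12). Its sign was not fixed: with 1 array left out the difference ran between -0.02 and 0.13.

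Cd47, the signal against engulfment, was read by 5 probe sets that did not single out a direction. At 1449507_a_at, the brightest, the AID-/- arrays were at 11.48, 12.10 and 11.77, against 11.51, 11.28 and 11.32 in AID+/+ arrays. The lowest AID-/- array lay under the highest AID+/+ array, and the difference was 0.42 (SE 0.16). At 1419554_at the AID-/- arrays were at 10.35, 11.18 and 10.88, against 10.97, 10.67 and 10.83 in AID+/+ arrays, a difference of -0.02 (SE 0.20). At 1428187_at the means were 10.64 ± 0.36 in AID-/- and 10.76 ± 0.19 in AID+/+ arrays (SD, n = 3), a difference of -0.12 (SE 0.18). The AID+/+ arrays lay inside the range of the AID-/- arrays at both of these probe sets. The dimmer 1430997_at and 1459908_at differed by -0.11 (SE 0.15) and -0.09 (SE 0.11), and the mean over all 5 differed by 0.014. AID-/- replicate 2 was the highest AID-/- array at 5 of 5 Cd47 probe sets and replicate 1 the lowest at 4 of 5. Probe sets of 1 gene share their RNA and their array, so this repeats 1 measurement.

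Cd9, the tetraspanin, was at 4.15, 4.18 and 4.09 in AID-/- arrays, against 4.32, 4.21 and 4.29 in AID+/+ arrays. The groups did not overlap, but all values were under the median probe set and the difference was -0.13 (SE 0.09). Esam, an adhesion molecule of endothelial junctions and platelets that also marks early haematopoietic progenitors, was at 4.92, 4.67 and 4.91 in AID-/- arrays, against 4.90, 4.91 and 4.89 in AID+/+ arrays. Its groups overlapped, with a difference of -0.07 (SE 0.10). Without detection calls, neither gene could be called absent.

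Across the 14 probe sets the fit over all probe sets called 3 lower and 1 higher, against a background of 14.6% of all probe sets called, 7.39% lower and 7.24% higher. The called ones were the 3 brighter Cd44 probe sets and Icam1, and with the contrast known when the genes were chosen nothing is read from that count. The groups did not overlap at 5 of the 14, against 32.9% of all probe sets, the fifth being Cd9. By the brightest probe set of each gene, they did not overlap for Cd44, Icam1 and Cd9, against 36.5% of all genes. The AID-/- arrays spanned a wider range than the AID+/+ arrays at 11 of 14, against 53.7% of all probe sets; the probe sets of Cd44 and Cd47 make up most of these and are not independent.

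**Figure D2:**
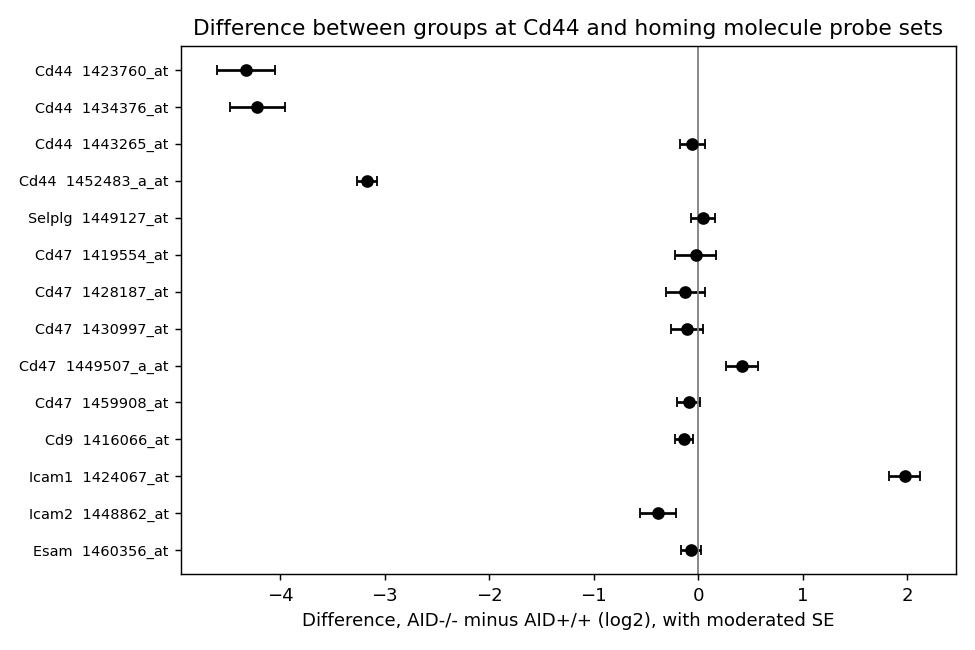
The difference between groups, AID-/- minus AID+/+ on the log2 scale (horizontal axis), at each of the 14 probe sets, with bars of 1 moderated SE. Cd44 at 1423760_at, 1434376_at and 1452483_a_at lies at -4.33, -4.22 and -3.17, Icam1 lies at 1.97, and the remaining 10 lie between -0.39 and 0.42.

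The genes whose values over the 6 arrays ran closest to Cd44 at 1423760_at, after each was centred on its own mean, were Akr1c13, Bmpr1a, S100a4, Kctd15 and Sertad4. Their root-mean-square differences from the Cd44 profile were 0.281, 0.325, 0.366, 0.378 and 0.389 log2 units. Akr1c13, an aldo-keto reductase gene, was at 4.87, 4.72 and 4.32 in AID-/- arrays, against 8.53, 8.79 and 8.77 in AID+/+ arrays. Akr1c13 and the other nearest genes all share with Cd44 the lowest AID-/- value in replicate 3, which the measure of nearness itself favours. With 2 groups of 3 arrays, the difference between the groups makes up most of each profile.

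Around Cd44 and Icam1 on their chromosomes, the 5 measured genes on each side were taken in the gene order of GRCm38.p6, a choice made after the other lists. Around Cd44, 1 of 10 rose and 0 fell (limma, background 18.5% of genes called; 4 of 10 at an unadjusted p under 0.05). The one was Ldlrad3, the farthest on its side, with means of 6.00 ± 0.18 for AID-/- and 4.26 ± 0.05 for AID+/+ (SD, n = 3 each, limma adjusted p = 3.36e-05). The immediate neighbours of Cd44, the glutamate transporter gene Slc1a2 and the pyruvate dehydrogenase subunit gene Pdhx, differed by -0.19 (SE 0.14) and 0.09 (SE 0.09). Around Icam1, 0 of 10 rose and 2 fell: Angptl6 by -0.41 (SE 0.08) and the DNA methyltransferase gene Dnmt1 by -0.36 (SE 0.09), with 4 of 10 at an unadjusted p under 0.05. Both counts stand beside the same background of 18.5%. Icam4 and Icam5, relatives of Icam1 and the nearest measured genes on one side of it, differed by -0.22 (SE 0.09) and 0.01 (SE 0.09) at values under the median probe set. Neither passed (limma adjusted p = 0.138 and 0.945).

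**Figure D3:**
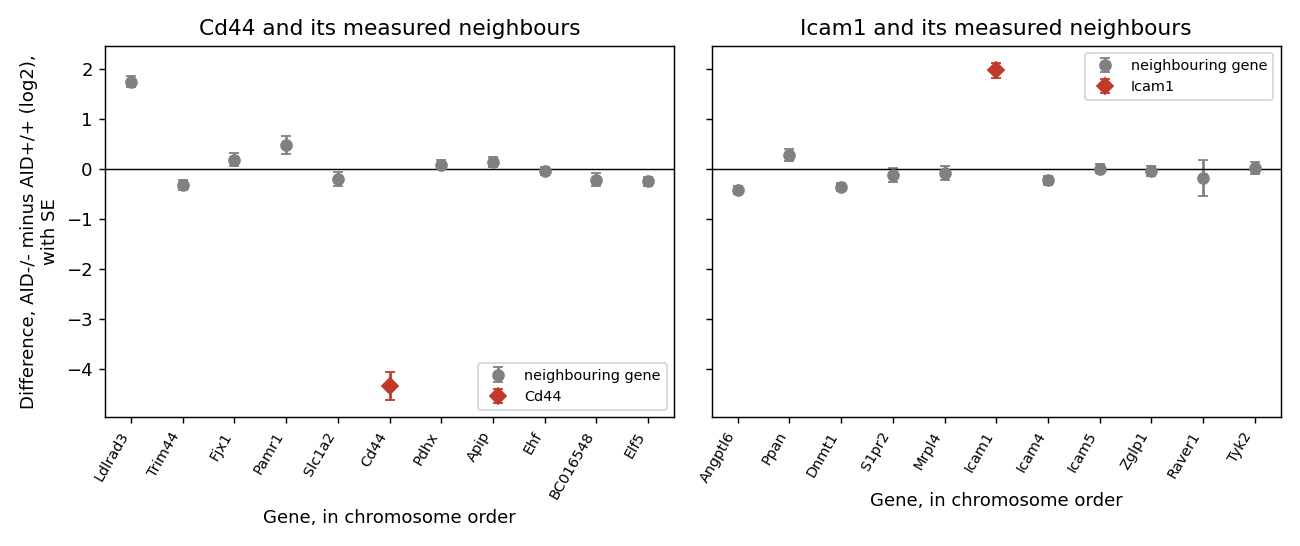
The difference AID-/- minus AID+/+ on the log2 scale (vertical axis), with bars of 1 moderated SE, for Cd44 (left) and Icam1 (right) in red and the 5 measured genes on either side of each in grey, in chromosome order. Cd44 lies at -4.33 and Icam1 at 1.97, while their immediate neighbours lie between -0.22 and 0.09 and Ldlrad3 lies at 1.74.

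Genes that work with these molecules were grouped in 6 lists of 128 genes, of which 122 were measured. The fit over 18193 genes called 10 higher and 13 lower in AID-/- leukaemia, or 18.9% of the measured ones, against 10.1% of all genes higher, 8.42% lower and 18.5% in either direction. The share called over the 6 lists together was thus close to the background, while by list it ran from 0% to 42.9%. The median difference of the lists was -0.01, beside -0.03 over all genes. By list it was 0.03 for CD44 ligands and hyaluronan turnover, 0.03 for CD44 linkers, sheddases and splicing factors, and 0.01 for selectins and their ligand synthesis. It was -0.09 for CD47 partners, -0.01 for tetraspanins and -0.09 for immunoglobulin-superfamily and junctional genes. Fits on 5 arrays called 5 to 10 higher and 6 to 10 lower. The counts moved by over 1.5 times without AID-/- replicate 2 (7 lower), AID-/- replicate 3 (6 higher, 8 lower), AID+/+ replicate 1 (6 lower), AID+/+ replicate 2 (5 higher) or AID+/+ replicate 3 (6 higher, 7 lower).

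Ligands of CD44 and enzymes of hyaluronan turnover did not pass: limma called 0 of 15, against 18.5% of all genes, with 1 at an unadjusted p under 0.05. Limma with an intensity trend and the linear model without moderation also called 0. The hyaluronan synthase gene Has2 averaged 3.60 ± 0.33 in AID-/- and 3.45 ± 0.26 in AID+/+ leukaemia. Srgn, which encodes the proteoglycan serglycin, and Lgals9, which encodes galectin-9, both of which bind CD44, were bright in both groups, with differences of 0.17 (SE 0.14) and -0.11 (SE 0.13). Among the linkers of CD44 to the cytoskeleton, its sheddases and factors that splice its variable exons, 1 of 24 rose and 1 fell. The share called was 8.33%, against 18.5% of all genes. Adam17, a sheddase of CD44 and of L-selectin, rose by 0.54 (SE 0.12) and was called at all 3 of its probe sets, with arrays at 8.84, 8.43 and 8.77 in AID-/- and 8.20, 8.14 and 8.07 in AID+/+ leukaemia. Leaving out AID-/- replicate 3, or either of AID+/+ replicates 2 and 3, ended that call, with limma adjusted p of 0.0573 to 0.0731. Hnrnpa1, a splicing repressor, fell by 0.51 (SE 0.10) at the brightest of its 3 probe sets, and the others did not pass. Ezr and Msn, which encode the linkers ezrin and moesin, differed by 0.04 (SE 0.09) and 0.21 (SE 0.10) and did not pass.

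Selectins and the enzymes that build selectin ligands on carriers such as PSGL-1 and CD44 moved in both directions, with 5 of 21 higher, 4 lower and 12 that did not pass. The share called was 42.9%, against 18.5% of all genes, and no set test was run. Tpst2, a sulphotransferase that acts on the tyrosines PSGL-1 needs for binding P-selectin, rose by 0.88 (SE 0.12), with arrays at 8.23, 8.61 and 8.47 in AID-/- and 7.63, 7.44 and 7.60 in AID+/+ leukaemia. St3gal6, a sialyltransferase of selectin ligands, rose by 0.88 (SE 0.17) at its brightest probe set and by 0.90 at the second, while its other 3 probe sets did not pass. The St3gal6 call was lost in the linear model without moderation (adjusted p = 0.0928). Galnt1, which starts O-glycan chains, fell by 0.55 (SE 0.08), with arrays at 9.80, 9.81 and 9.88 in AID-/- and 10.34, 10.45 and 10.37 in AID+/+ leukaemia. Non-overlapping groups were a condition for naming these 3 genes, so they add no support. Of all genes, 36.5% had such groups. Selp, which encodes P-selectin itself, fell by 0.87 (SE 0.18) at the brightest of its 3 probe sets, near the median probe set. That call was lost when AID+/+ replicate 1 was left out (limma adjusted p = 0.0536). Its other probe sets differed by -0.32 (SE 0.24) and -0.19 (SE 0.12) and did not pass. The other called members were Fut4, Gcnt1 and Tpst1, which were higher by 0.53 to 0.91, and B4galt1 and St3gal1, with differences of -0.48 and -0.37. Each of these 5 calls was lost in 3 to 5 of 6 fits that left out 1 array. Fut4 and Gcnt1 were under the median probe set in both groups. With only probe sets above the median probe set kept, the list had 3 higher members. The list had 2 higher members when AID-/- replicate 3 or either of AID+/+ replicates 1 and 2 was left out, and 3 without AID+/+ replicate 3. It had 2 lower members without AID-/- replicate 2 or AID+/+ replicate 3, and 1 without AID+/+ replicate 1. Fut7, the fucosyltransferase that completes selectin ligands in leukocytes, averaged 4.98 ± 0.03 in AID-/- and 4.97 ± 0.11 in AID+/+ leukaemia.

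Among partners of CD47 and other signals of engulfment, 1 of 14 rose and 2 fell. The share called was 21.4%, near the 18.5% of all genes. Calr, which encodes calreticulin, a signal for engulfment when exposed on the cell surface, rose by 0.79 (SE 0.11) and was called at all 3 of its probe sets, with arrays at 12.64, 12.94 and 12.73 in AID-/- and 12.05, 11.83 and 12.07 in AID+/+ leukaemia. Slamf7, a receptor of haematopoietic cells that takes part in their engulfment, fell by 1.25 (SE 0.15), with arrays at 9.30, 8.79 and 8.77 in AID-/- and 10.25, 10.17 and 10.20 in AID+/+ leukaemia. Both calls held in 6 of 6 fits that left out 1 array. Siglecg, an inhibitory receptor of B cells, fell by 0.72 (SE 0.17), but not when AID+/+ replicate 1 or either of AID-/- replicates 1 and 2 was left out (limma adjusted p of 0.0558 to 0.0562), which leaves 1 lower member. Sirpa, the receptor of CD47 on macrophages, averaged 4.99 ± 0.11 in AID-/- and 5.07 ± 0.04 in AID+/+ leukaemia.

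Other tetraspanins and partners of CD9 held 3 of 23 that rose, 4 that fell and 16 that did not pass. The share called was 30.4%, against 18.5% of all genes, and no set test was run. Tspan6 rose by 2.22 (SE 0.28) at its brightest probe set, with arrays at 6.98, 7.19 and 6.00 in AID-/- and 4.59, 4.49 and 4.42 in AID+/+ leukaemia, and by 3.74 at its other. Cd82, a tetraspanin known to restrain migration, rose by 1.61 (SE 0.29), with arrays at 8.01, 9.21 and 8.88 in AID-/- and 7.04, 6.86 and 7.40 in AID+/+ leukaemia, but its second probe set differed by -0.07. Tspan4 fell by 1.40 (SE 0.13), with arrays at 6.57, 6.19 and 6.09 in AID-/- and 7.78, 7.59 and 7.68 in AID+/+ leukaemia. Cd53, a tetraspanin of leukocytes, fell by 0.77 (SE 0.10) and at its other probe set by 1.01. These 4 calls held in 6 of 6 fits that left out 1 array, with limma adjusted p of up to 0.0335. The Cd82 call was lost in the linear model without moderation (adjusted p = 0.0909). Also called were Tspan14, higher by 0.57, and Tspan17 and Igsf8, with differences of -0.37 and -0.72. Their calls were lost in 2, 5 and 5 of 6 fits that left out 1 array, in that order. The list had 2 lower members, in place of 4, when either of AID-/- replicates 2 and 3 or of AID+/+ replicates 1 and 3 was left out. Cd81 and Cd37, tetraspanins of B cells, differed by 0.18 (SE 0.09) and 0.38 (SE 0.14) and did not pass.

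In the list of other immunoglobulin-superfamily and junctional adhesion genes, 0 of 25 rose and 2 fell. The share called was 8%, against 18.5% of all genes. Madcam1, a homing ligand of mucosal vessels, and Nectin1, an adhesion molecule of epithelial junctions, fell by 0.35 (SE 0.09) and 0.28 (SE 0.08), Madcam1 at values under the median probe set and Nectin1 at values above it. The Nectin1 value is from the brightest of its 3 probe sets, which did not pass in the fit over all probe sets. Its others differed by -0.19 (SE 0.13) and -0.02 (SE 0.11) and did not pass either. Madcam1 was called in 1 of 6 fits that left out 1 array, without AID+/+ replicate 1, and Nectin1 in 0 of 6 (adjusted p up to 0.123 and 0.130). The list had 0 called members when AID-/- replicate 3 or either of AID+/+ replicates 2 and 3 was left out, and 1 without each of the others, which was Cd2 when AID-/- replicate 1 or 2 was left out. Pecam1, an endothelial and leukocyte adhesion molecule, averaged 6.93 ± 0.42 in AID-/- and 6.74 ± 0.20 in AID+/+ leukaemia. Cd48, a ligand of the SLAM family, differed by -0.07 (SE 0.09). Neither passed.

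**Figure D4:**
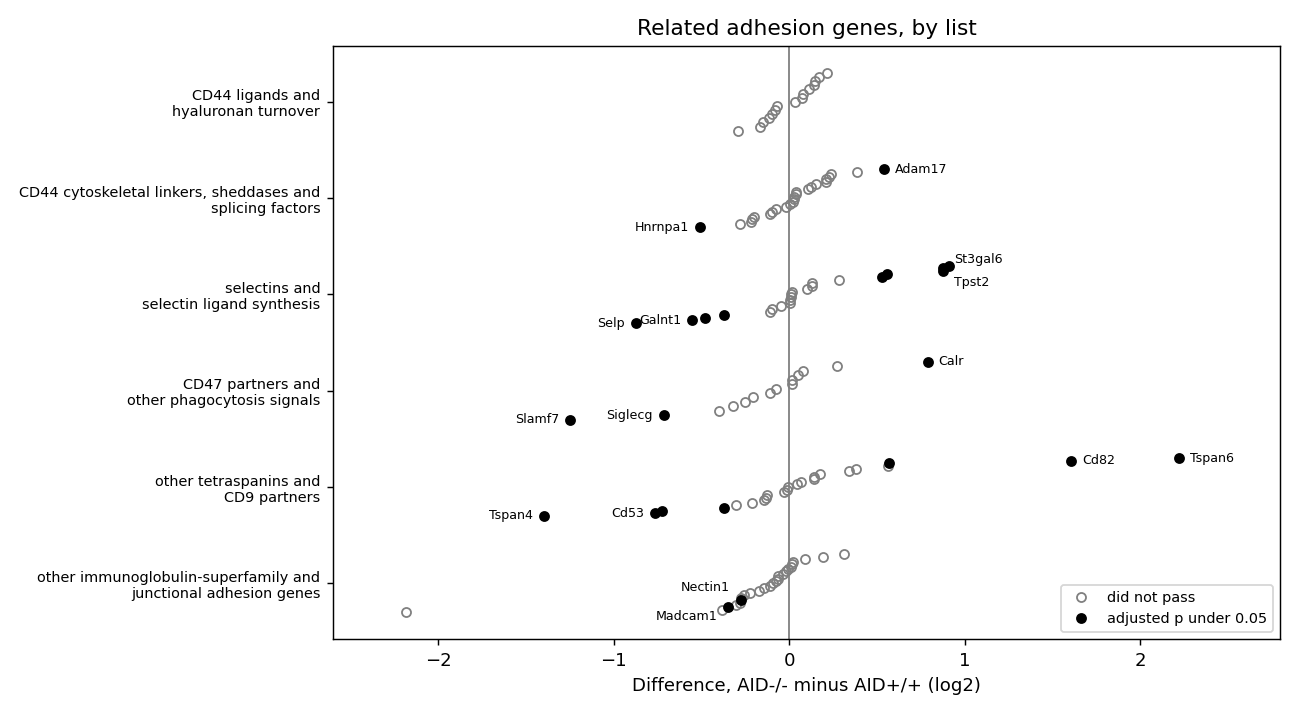
The difference AID-/- minus AID+/+ on the log2 scale (horizontal axis) for the 122 measured genes of the 6 related lists (vertical axis), each a point at its brightest probe set; filled points passed limma at an adjusted p under 0.05 and the named ones follow the naming rule. Filled points lie on both sides of 0, from Tspan4 at -1.40 to Tspan6 at 2.22, and the CD44 ligand list has none.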

How the data were processed

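The deposited table holds log2 expression values, 1 column per array, for 45101 probe sets. Per the submitters' processing notes the authors used RMA and Partek; versions, the order of steps and the genome build are not given in the sources used here. After 64 array controls were left out, 45037 probe sets remained. The platform annotation gave 34945 of them 1 symbol, 932 several and 9160 none, and Entrez identifiers matched 34741 to current RefSeq symbols. The brightest probe set, by its mean over the 6 arrays, stood for each gene.

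Differences (AID-/- minus AID+/+) came from limma 3.58.1 under R 4.3.3 (lmFit, eBayes, group as the only term, two-sided, Benjamini-Hochberg over all probe sets or all genes, threshold 0.05, no filter) and tested on simulated data. SE is the moderated standard error. The genes and lists were chosen with earlier results of these data known. From each related list the text names up to 4 called genes with the smallest p and non-overlapping groups, and others as examples chosen after their values were seen. Deviations of same-numbered arrays from their group means correlated at -0.05, -0.07 and 0.03, and replicate numbers were therefore not used as pairs. The labels give no batch. The targeted transcript is not reported here. No detection calls were used, and the number of arrays limits the precision. Alternatives were other scalings, a filter on dim probe sets, other moderation, a replicate block, averaged probe sets and leaving out each array.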

Additional observations from a re-analysis of the deposited data

How the results depend on the processing

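The differences of Cd44 at its 3 brighter probe sets and of Icam1 kept their sign under quantile normalization, median centring, the replicate block and leaving out each array. With 1 array left out, Cd44 at 1423760_at ran between -4.58 and -3.95, Icam1 between 1.84 and 2.08, Icam2 between -0.54 and -0.20, Cd47 at its brightest probe set between 0.26 and 0.57, Selplg between -0.02 and 0.13, Cd9 between -0.17 and -0.11, and Esam between -0.11 and 0.01. Averaging probe sets gave -2.94 for Cd44 and 0.014 for Cd47, since their probe sets differ.

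Without variance moderation, limma's counts over all probe sets were 1209 higher and 1154 lower (3262 and 3327 with it), over all genes 912 and 723 (1840 and 1531), and over the related genes 3 and 7 (10 and 13). With 1 array left out they were 2091 to 3198 and 2216 to 2911 over probe sets, 1197 to 1848 and 945 to 1366 over genes, and 5 to 10 and 6 to 10 over related genes, lowest over probe sets and genes without AID+/+ replicate 3. The replicate block, with numbers that do not pair the samples, called 10 higher and 9 lower related genes, and 2723 and 2646 probe sets; 5 of the 23 related calls were lost. Of those 23, 2 were lost with quantile normalization, 4 with median centring, 2 with an intensity trend, 13 without moderation and 1 with averaged probe sets. The filter on dim probe sets kept only 20 of the 23 in the fit, and those 20 were still called. In these settings 0 changed sign. The causes were not tested.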

Other observations

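Cd2, which encodes a lymphocyte adhesion receptor that binds CD48 in mice, was chosen after its values were seen. It was at 8.82, 5.88 and 8.28 in AID-/- arrays, against 9.81, 9.80 and 9.92 in AID+/+ arrays. The groups did not overlap, but the AID-/- arrays were uneven, with replicate 2 far under the other two, and the difference of -2.18 (SE 0.65) did not pass over all genes (limma adjusted p = 0.0533, and 0.00157 to 0.228 over the alternatives). The difference was -1.29 without AID-/- replicate 2 and -2.76 without AID-/- replicate 1. It passed without AID-/- replicate 1 or AID-/- replicate 2, with the filter on dim probe sets, with an intensity trend and with the replicate block.

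Tmem119, a transmembrane protein gene directly beside Selplg on chromosome 5 in GRCm38.p6, was chosen likewise. It was at 8.17, 9.83 and 9.75 in AID-/- arrays, against 5.24, 5.31 and 5.35 in AID+/+ arrays, and rose by 3.95 (SE 0.39; limma adjusted p = 4.99e-04), whereas Selplg itself differed by 0.04. Of the 10 measured genes nearest to Selplg, 2 rose and 1 fell, against 18.5% of all genes called in either direction. Nothing is read from that count.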
